A study of Gallus gallus with 4 samples.

Results

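The last interval of a time course of Arp6 loss, from 4 to 6 days in tetracycline, was examined across 8026 genes of the chicken line DT40, which derives from a B cell lymphoma. The array taken at day 6 was compared with the array taken at day 4, which are 2 of the 4 arrays measured. Both cultures came from a conditional line in which exons 6 to 11 of the ARP6 gene had been replaced with hisD or puro resistance cassettes driven by a beta-actin promoter, after selection with histidinol, zeocin and puromycin. An Arp6 transgene that responds to tetracycline kept these cells supplied until tetracycline was added at 2 ug/ml, for 6 days before the day 6 array and for 4 days before the day 4 array. The remaining arrays came from the same line at day 2 in tetracycline and at day 0, with no tetracycline. How many clones the line represents is not given in the labels, and the cells of days 6 and 4 differ in time in tetracycline and in time in culture together.

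Arp6, the product of ACTR6, is a subunit of the SRCAP complex, a chromatin remodeller that exchanges canonical H2A for the histone variant H2A.Z, which sits around promoters and at other regulatory sites. The study's title concerns the place of chromosome territories in the nucleus, and the arrays follow transcript levels once Arp6 is no longer made. As cells of the B lineage, DT40 cells make a B cell receptor and immunoglobulin, which is folded in the endoplasmic reticulum (ER) before it leaves the cell. Genes of antigen receptor signalling, antigen presentation, ER folding and amino acid supply were among the groups followed here.

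With 1 array a day there is no replicate error and no test between days. Each value below is a signal in array units after the 4 arrays were brought to the same median, and each ratio compares 2 arrays. A gene that stood apart at day 6 cannot be told apart from an array that stood apart. The day 6 array had the highest background, the 95th percentile of 59 control probe sets without added target, at 45.9 against 32.1 at day 4, 24.9 at day 2 and 25.4 at day 0. Accordingly 7105 of the genes were above background at day 6, against 7635 at day 4. The 3'/5' signal ratio of actin was 2.22 at day 6 and 1.84 at day 4, and that of GAPDH was 0.880 at day 6 and 0.887 at day 4. Markers of the cell type were present: 9 of 10 B cell genes on the array were above background at day 6 and 10 of 10 at day 4. JCHAIN at 4643 and 3881 and POU2AF1 at 1567 and 1102 were brighter at day 6. Others were dimmer, such as BTK at 71.3 and 333, CD79B at 370 and 1116 and SYK at 429 and 958. The median log2 ratio of the 9 tested genes was -0.66, with 3 of them 2-fold lower and none 2-fold higher. Of all genes 6.28% were 2-fold lower and 4.95% higher. The 3 lower genes, BTK, CD79B and SYK, are also counted in the B cell group below. PAX5, the factor that maintains B cell identity, was dim, with 56.8 at day 6 and 57.4 at day 4. EBF1 was below background at day 6, at 3.45, so the size of its difference from 72.9 at day 4 is not known. That day 4 signal was close to the highest control without target, 63.5, and EBF1 was the marker left out of the tested genes.

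ACTR6 itself showed little movement in this interval. The brighter of its probe sets read 7002, 318, 331 and 383 at days 0, 2, 4 and 6, so the day 6 signal was 1.16-fold that of day 4. The other read 7086, 4.32, 29.7 and 8.39, which is below background on both later arrays. Nearly all of the ACTR6 difference lay between days 0 and 2. Whether these probe sets lie within the deleted exons is not given in the sources used here. Among 22 tested genes of the SRCAP and p400 complexes and H2A.Z none differed 2-fold, beside 4.95% higher and 6.28% lower of all genes. Their median log2 ratio was -0.01 beside -0.01 for all genes. The largest ratio in that group was that of YEATS4, a histone reader shared by SRCAP and TIP60, with 303 at day 6 against 533 at day 4 and a second probe set at -0.89 on the log2 scale. H2AFZ, the H2A.Z gene, read 4614 at day 6 and 5559.9 at day 4.

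Between day 4 and day 6, 397 genes were at least 2-fold higher (4.95% of those tested) and 504 were at least 2-fold lower (6.28%). At 3-fold there were 112 higher and 173 lower genes, and at 4-fold 33 and 65. Most genes were close to unity, as 5921 genes or 73.8% lay within 1.5-fold and the quartiles of the log2 ratio were -0.32 and 0.29. From day 2 to day 4, 376 genes (4.68%) were 2-fold higher and 232 (2.89%) lower, and from day 0 to day 2, 194 (2.42%) were higher and 238 (2.97%) lower. The comparisons share arrays, day 4 being the later array of one and the earlier of the other. The split depended on the scaling: with arrays set to the same 75th percentile 407 genes were higher and 490 lower, without rescaling, 258 genes were higher and 759 lower at a median log2 ratio of -0.23, and with arrays set to the spike-in controls 309 were higher and 648 lower at a median of -0.14.

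The count varied with how bright a gene was. When the genes were ranked by mean signal over the 4 arrays and cut into 4 brightness classes of equal size, 29.6% of class 1, the dimmest, differed 2-fold, against 10.4%, 3.49% and 1.40% of classes 2, 3 and 4. In classes 3 and 4 together 26 genes were 2-fold higher and 72 lower. Many genes have a second probe set, which reads the same RNA at another stretch and is no replicate. In class 1 the second probe set had the same sign for 18 of 39 higher and 25 of 44 lower genes. In class 4 it did for 5 of 5 and 11 of 12. Over all 3577 genes with a second probe set, 51.3% of these were above 0. For that reason mostly bright genes, or genes read by several probe sets, are given first, a choice made after their values were seen.

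**Figure D1:**
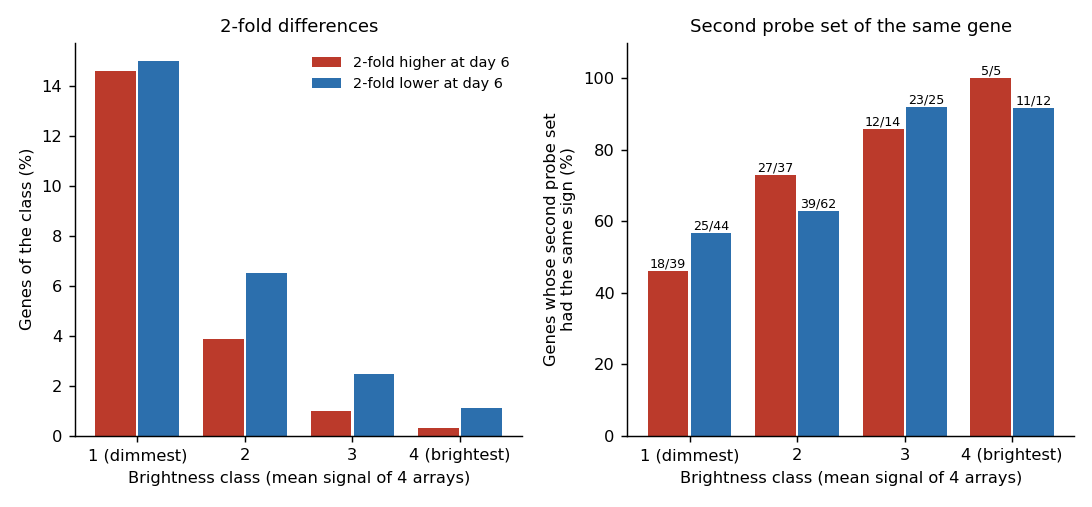
Left, percentage of genes at least 2-fold higher or lower at day 6 than at day 4, in 4 brightness classes of 8026 genes ranked by mean signal over 4 arrays, class 1 being the dimmest. Right, percentage of those with a second probe set whose second ratio had the same sign, with the counts above the bars. The share of 2-fold genes is highest in class 1, where the second probe set had the same sign for 18 of 39 higher genes, against 5 of 5 in class 4.

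Genes that were higher at day 6 included enzymes and regulators with day 6 signals outside the range of the other 3 days. CHAC1, which degrades glutathione and is a target of the stress factor ATF4, read 484, 1523, 1612 and 5197 at days 0, 2, 4 and 6, a 3.22-fold difference in the last interval after almost none from day 2. PPP3CA, the catalytic subunit of calcineurin, read 192, 375, 617 and 1509.5, so that each array was brighter than the one before. HPGDS, a prostaglandin D synthase, read 69.7, 102, 319 and 979.9, with a second probe set at a log2 ratio of 1.96. STK17A, a kinase of the death-associated family, read 62.0, 60.1, 144 and 539.7. In each of these the day 6 array was the highest of the 4. MAT1A, a methionine adenosyltransferase, read 30.7, 89.1, 166 and 573, and LUM, the matrix proteoglycan lumican, read 37.2, 92.6, 344 and 1069. These 2 genes were near background at day 0 and brighter on every later array. Like STK17A they were in brightness class 2 with no second probe set. CHAC1, though bright, had no second probe set either.

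Bright genes that were lower at day 6 included parts of the antigen presentation and antigen receptor machinery. CD74, the invariant chain that escorts MHC class II, read 3110.4, 1934, 658 and 96.3 at days 0, 2, 4 and 6. The last interval alone held a 6.84-fold difference, and its other probe sets were at log2 ratios of -2.25 and -1.07. RBM24, an RNA-binding protein, read 2436, 1447, 1124 and 203, with a second probe set at -2.59. BTK, the kinase downstream of the B cell receptor, read 1167, 651, 333 and 71.3, and was 4.67-fold lower at day 6 than at day 4. CD79B, the receptor's signalling chain, read 2051, 1581, 1116 and 370.0. All 4 of these genes were dimmer on each later array, and their ratio was larger from day 4 to day 6 than in either earlier interval.

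For other named genes day 4 was the brightest array. NEUROD6, a neuronal bHLH factor, read 365, 299, 463 and 107. ENPP2, the secreted lysophospholipase autotaxin, read 266, 263, 478 and 111, with a second probe set at -2.32. DBI, an acyl-CoA binding protein, read 199.7, 216, 379 and 92.1. CSTA, the protease inhibitor cystatin A, read 31.3, 49.8, 247 and 65.3. CSTA was brighter at day 6 than at days 0 and 2, but it was in brightness class 1. Its day 6 signal was under the highest control without target on that array, 73.3. Part of the ratios of these genes thus rests on a high day 4 signal. HMCES, which shields abasic sites in DNA, had no such peak and was dimmer on each later array, at 935, 628, 561 and 141, with a second probe set at -1.07.

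Several of the largest ratios were not shared by a gene's other probe set. TNRC18 was 4.20-fold higher by the probe set used and at a log2 ratio of -0.53 by the second. DGKZ, a diacylglycerol kinase, was 3.39-fold higher with a second at -0.37, and AFF4, an elongation scaffold, was 3.27-fold higher with a second at -1.13. MAD1L1, of the spindle checkpoint, was 3.69-fold higher with a second at 0.01. SNX16, a sorting nexin, was 3.77-fold higher with a second at 0.00, and its 3 probe sets ran from 0.00 to 1.91 with a median of 1.27. On the low side PPP1R14C, a phosphatase inhibitor, was 6.19-fold lower with a second at -0.07. NAAA, a lysosomal amidase, was 4.75-fold lower with a second at 0.67, and B3GALNT2, a glycosyltransferase, was 4.07-fold lower with a second at 0.23. The sign differed between the probe sets of TNRC18, DGKZ, AFF4, NAAA and B3GALNT2, while for MAD1L1, SNX16 and PPP1R14C a second ratio lay near 0. The largest ratio among the named genes above background was that of TRBV6-5, a T cell receptor gene segment, at 50.5 against 443 and 8.77-fold lower. That ratio came from a probe set of the kind that can match several transcripts. The probe sets used for BTK, CD79B, ORC1, RBM24, ADA, STK17A and ACTR6, among others, were of the same kind. BTK, CD79B and ORC1 had no second probe set here.

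**Figure D2:**
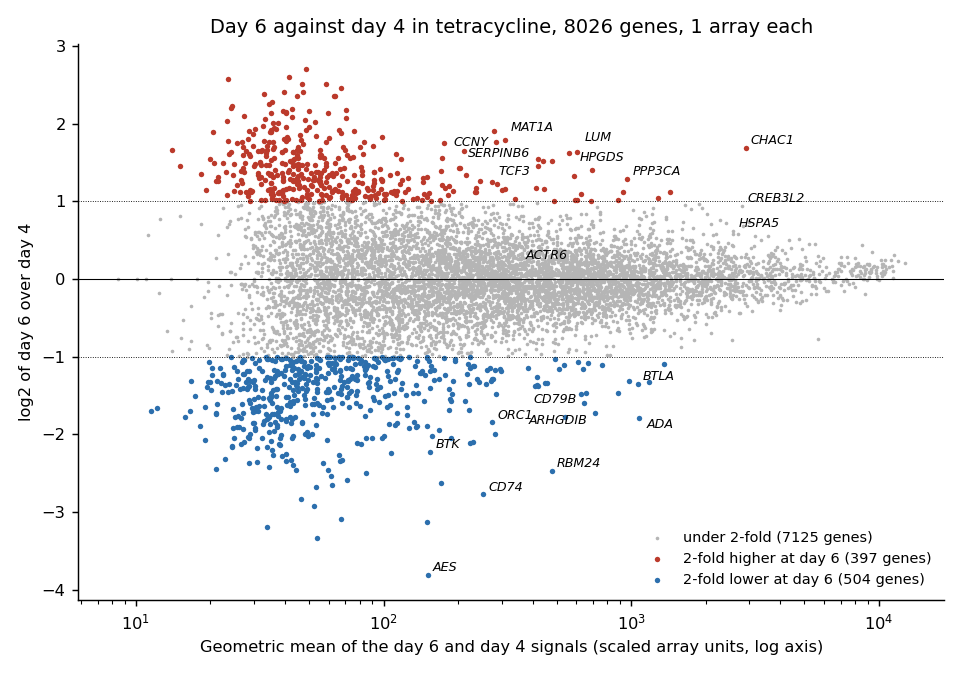
log2 ratio of day 6 over day 4 for 8026 genes against the geometric mean of both signals on a log axis, 1 array each; red points are at least 2-fold higher at day 6, blue points at least 2-fold lower, and dotted lines mark 2-fold. The cloud narrows with signal, and CHAC1 above and RBM24, CD74 and ADA below stand away from it.

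Some genes dropped out of or came into the measurable range, and their ratios are lower bounds against the background of the dimmer array. AES, a Groucho-family corepressor, read 626, 394, 563 and 40.2 over the 4 days, which puts day 6 at least 12.3-fold below day 4. TRAF5, an adaptor of tumour necrosis factor receptors, read 261, 231, 196 and 14.9, at least 4.27-fold lower in the last interval, while its second probe set was at -0.61. RASGRP3, a Ras activator of B cells, was at least 3.99-fold lower with a second probe set at -1.94. THAP8 was at least 4.40-fold lower and AK4, a mitochondrial adenylate kinase, at least 4.27-fold lower. In the other direction FOXI2, CALML3, SLC41A3, SLITRK4 and DGKI were at least 4.92-fold, 4.46-fold, 4.43-fold, 4.33-fold and 3.92-fold higher. All 5 were in brightness class 1, at 126 to 158 on day 6. The filter on dim probe sets took the mean of all 4 arrays, day 6 included. FOXI2, at 34.3, 8.70, 28.8 and 158, and SLITRK4, at 8.53, 34.5, 24.5 and 139, passed it only through day 6. Their place among the tested genes thus rests on the array where they were high. Of the 2-fold genes, the dimmer signal lay below background for 209 of the 397 higher and 329 of the 504 lower ones, which leaves 188 higher and 175 lower genes above background on both arrays.

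A second way to look past dim probe sets was to require at least 3 probe sets of a gene, all on the same side and with a median of 2-fold, a rule set after the values were seen. Of 1303 genes with 3 or more, 9 were higher and 26 lower. CREB3L2, an ER-membrane transcription factor of the secretory pathway, had 5 probe sets with log2 ratios of 0.94 to 1.64 and a median of 1.40. Its brightest read 1746, 2025, 2018 and 3874 at days 0, 2, 4 and 6, so the first 3 arrays were close together. PPP3CA had 5 probe sets between 0.79 and 1.29, and CCNY, a cyclin, had 3 between 1.07 and 2.35. On the low side were CD74, ACSS1A, an acetyl-CoA synthetase, with a median of -1.87, and XRN1, the cytoplasmic exonuclease of mRNA decay, with -1.62. SWAP70, a Rac-binding protein of B cells, had a median of -1.18 and signals of 861, 626, 447 and 197. MYO10, an unconventional myosin, had 4 probe sets with a median of -1.19. PIK3R5, a regulatory subunit of phosphoinositide 3-kinase, had 3 probe sets between -1.07 and -0.97.

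To find what differed in the last interval and not before, genes were taken whose highest and lowest signals at days 0, 2 and 4 were within 1.5-fold. There were 4949, and of these 79 (1.60%) were then 2-fold higher and 158 (3.19%) 2-fold lower at day 6. Above background on both arrays were 54 and 74. Where a second probe set existed, it had the same sign for 14 of 23 of the 79 higher and 39 of 53 of the 158 lower genes. In brightness classes 3 and 4 there were 11 and 34 genes, and there it did for 8 of 8 and 14 of 15. With 1 array for day 6, all of these rest on that array. The filter on mean signal also includes day 6, so dim genes could enter the higher count through it.

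Higher only at day 6 were regulators with steady earlier levels. SERPINB6, an intracellular protease inhibitor, read 244, 266, 246 and 716, with a second probe set at 1.60. TCF3, which encodes the E2A factors of B cell development, read 241, 292, 252 and 694, with a second at 0.92. RGCC, a cell cycle regulator, read 137, 132, 95.6 and 322, with a second at 2.32. In all 3 the earlier arrays lay within 1.5-fold and both probe sets were higher at day 6. RGCC was lowest at day 4, and its log2 ratio at day 6 was 1.75 over day 4 and 1.23 over day 0. SEC61A2, a translocon channel subunit, read 152, 156, 124 and 335, with a second at 0.22, and ASB5 was 2.69-fold higher with a second at -0.02. BCR at 149.8 against 33.1, CPD, the Golgi carboxypeptidase D, at 147 against 39.1, FAM185A, CARD19 and HOXA7 had larger or similar ratios but day 4 signals of 32.2 to 44.5, near background, and no second probe set. Brighter genes of the same pattern, chosen after their values were seen, were CARHSP1, an RNA-binding phosphoprotein, at 932, 913, 892 and 1836, SRP19, a subunit of the signal recognition particle, at 504, 471, 429 and 914, and EDEM3, of ER-associated degradation, at 646, 759, 622 and 1255.

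The 158 genes lower only at day 6 outnumbered the 79 higher ones, an excess that was absent with a floor at the 60th percentile of signals, at 91 each, and turned with no filter on dim probe sets, at 180 lower and 433 higher. ADA, the adenosine deaminase of purine salvage, read 2289, 1940.3, 2003 and 582, and its second probe set was at -1.99. ARHGDIB read 1122, 1164, 1299 and 392. ORC1, the largest subunit of the origin recognition complex, read 582, 506, 522 and 145. The first 3 arrays of each were nearly level and day 6 alone was low, 3.44-fold, 3.31-fold and 3.59-fold below day 4. TMEM123 read 1032, 944, 1046 and 374, with a second probe set at -1.06. ACSS1A read 259, 271, 202 and 55.3, with a second at -1.16. PPIL4, a nuclear cyclophilin, and TMEM108 were 4.05-fold and 3.84-fold lower with no second probe set. TRUB2, a mitochondrial pseudouridine synthase, TAB1, an activator of the kinase TAK1, and PM20D1, a secreted peptidase, were 3.01-fold, 2.98-fold and 2.92-fold lower.

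More bright genes of that pattern, chosen after their values were seen, included genes of immune function. BTLA, an inhibitory receptor of lymphocytes, read 2488, 2052, 1696 and 665. LY96, the MD-2 partner of the endotoxin receptor, read 2038, 1917, 1859 and 745. P2RY8, a G protein-coupled receptor of germinal centre B cells, read 330.3, 323, 416 and 162, with a second probe set at -1.23. These receptors were all lowest at day 6. KLF2, a factor of lymphocyte quiescence, read 436, 376, 424 and 189, and CD44, the hyaluronan receptor, read 759, 899, 975 and 459.6 with a second probe set at 0.04. PPA2, a mitochondrial pyrophosphatase, read 2002, 1736, 1546 and 622. RAD54B, of homologous recombination, read 448, 367, 433 and 178, and CENPK, of the kinetochore, read 627, 505, 428 and 175. BTLA, LY96, PPA2 and CENPK were within 1.5-fold over days 0, 2 and 4 but dimmer on each later array. The log2 ratio of day 4 over day 0 was -0.55 for both BTLA and CENPK.

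**Figure D3:**
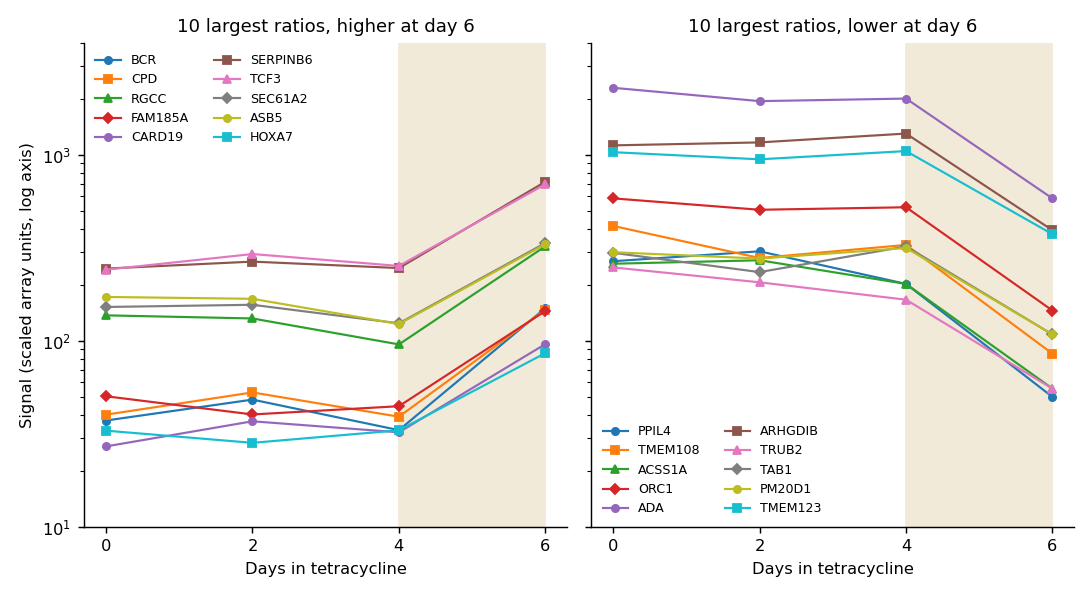
Signals on a log axis at days 0, 2, 4 and 6 in tetracycline, 1 array a day, for the 10 largest ratios in each direction among genes above background on both arrays whose first 3 arrays were within 1.5-fold. Left, genes higher at day 6; right, genes lower at day 6; the shaded interval is day 4 to day 6. SERPINB6 and TCF3 on the left and ADA, ARHGDIB and TMEM123 on the right are the brightest.

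Taken as groups, genes of B cell identity and antigen receptor signalling had the lowest median. Of 37 tested, 3 were 2-fold higher and 11 lower, where all genes had 4.95% higher and 6.28% lower, 26 were below 0, and the median log2 ratio was -0.49 beside -0.01 for all genes. The same group had a median of -0.50 over the whole of days 0 to 4 and -1.17 over days 0 to 6. Of the 37 genes, 17 were in brightness classes 1 and 2 and 8 were below background on at least 1 of these arrays. Among the 11 lower genes SPI1, a factor of myeloid and B cells, was at least 1.23-fold lower against background, with 24.2 at day 6 and 56.7 at day 4. CXCR5, a chemokine receptor, was also among them in brightness class 1, with 14.7 at day 6 and 42.5 at day 4, and both genes are named after their values were seen. IRF8, a factor of B cell differentiation, read 758, 351, 383 and 153 at days 0, 2, 4 and 6. SYK, the kinase that receives the receptor's signal, read 1331, 839.8, 958 and 429, with a second probe set at -0.24. Both differed little between days 2 and 4 and were lower at day 6. PIK3AP1, an adaptor for phosphoinositide 3-kinase, was 2.26-fold lower, and WDFY4, which acts in antigen cross-presentation in mammals, was at least 2.31-fold lower with a second at -1.99. FOXO1, a factor of early B cell genes, had a log2 ratio of -1.24, and IKZF3, a zinc finger factor of B cells, had -1.49 with a second probe set at 0.81.

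The group was not uniform. TCF3 was 2.75-fold higher, and PRDM1, which drives plasma cell differentiation, read 42.3, 43.5, 50.9 and 121. PRDM1 was in brightness class 1 with no second probe set, and its day 4 signal was under the highest control without target, 63.5. POU2AF1, a coactivator of immunoglobulin genes, read 1757, 1371, 1102 and 1567, and PLCG2, the phospholipase downstream of BTK, 843, 849, 709.8 and 1041. TNFRSF13B, a receptor for BAFF and APRIL, read 216, 149, 124 and 223. POU2AF1 and TNFRSF13B were thus back near their day 0 signals at day 6, and PLCG2 was above its own. PTPRC, the CD45 phosphatase, read 2602 at day 6 and 2789 at day 4. Of 12 genes of antigen presentation, 1 was 2-fold higher and 3 lower, beside 4.95% higher and 6.28% lower of all genes. Of the 12, 5 were below background on at least 1 of these arrays. The median was -0.25, and -0.01 with no filter on dim probe sets. Beside CD74 the lower ones were CTSS, the protease that cleaves the invariant chain, at least 3.80-fold lower, and RFXAP, a class II promoter factor. RFXAP counted as 2-fold lower from signals of 15.0 at day 6 and 82.1 at day 4, but against the day 6 background it was at least 1.79-fold lower. In these bulk samples, fewer cells of a type and less RNA per cell cannot be told apart.

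Markers of cell types outside the B lineage were mostly dim. Plasma cells belong to the B lineage, and 8 of 8 of their markers on the array were above background at both day 6 and day 4. The summed signal of 8 plasma cell genes was 19935 at day 6 and 17733 at day 4. Of this CREB3L2 was 3874 and 2018, and JCHAIN 4643 and 3881. IRF4 was lower at day 6, at 4302 against 5348, and so was ELL2, at 47.2 against 85.1. Of the 8, 1 was 2-fold higher, the dim PRDM1 at 121 against 50.9, beside 4.95% of all genes. The summed signal of 10 DT40 B cell genes was 8259 at day 6 and 9124 at day 4. Of this JCHAIN, which is also in the plasma cell sum, was 4643 and 3881, so it hides part of the fall in the others. Of 14 T cell markers on the array 4 were above background at day 6 and 5 at day 4. They summed to 1230 at day 6 and 1724 at day 4, mostly from CD3D at 911 and 1238, while CD28, CD4, LCK and CTLA4 were below background on both arrays. Macrophage and granulocyte markers were above background for 2 of 13 at day 6 and 5 of 13 at day 4, and summed to 442 and 367. Erythroid and thrombocyte markers were above background for 3 and 4 of 11, and summed to 2690 at day 6 and 2415 at day 4, of which TFRC, the transferrin receptor of many dividing cells, was 2423 and 2079.8. Fibroblast and endothelial markers were above background for 5 of 18 at day 6 and 10 of 18 at day 4. They summed to 1615 and 754, of which LUM was 1069 and 344. The others above background at day 6 were brighter than at day 4 but under the highest control without target, 73.3. These were COL1A2 at 57.7 against 39.1, COL3A1 at 55.7 against 33.0, PDGFRB at 57.9 against 41.1 and PECAM1 at 52.1 against 39.7. COL1A1, DCN and KDR were below background at day 6, and VWF was dimmer, at 32.2 against 52.9. The part of any of these in the B cell result was not tested.

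Genes of ER folding and the unfolded protein response, the programme that expands folding capacity when the ER is loaded, had a median log2 ratio of 0.39 at day 6 over day 4, beside -0.01 for all genes. Of 31 tested, 27 were above 0, but 1 was 2-fold higher and none 2-fold lower, where all genes had 4.95% higher and 6.28% lower. The median from day 0 to day 4 was 0.02 and from day 2 to day 4 -0.07. HSPA5, the ER chaperone BiP, read 3247, 2876, 2083 and 3196 at days 0, 2, 4 and 6, and HSP90B1, the ER form of HSP90, 3182, 3291, 2318 and 3861, with a second probe set at -0.28. HYOU1, a nucleotide exchange factor for BiP, read 985, 879, 744 and 1148. For these chaperones day 4 was the lowest array, and HSPA5 at day 6 was no brighter than at day 0.

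Some genes of ER-associated degradation and oxidation had their highest signal at day 6, and others did not. EDEM1, which routes misfolded glycoproteins to degradation, read 916, 969, 837 and 1527, with a second probe set at 0.94. HERPUD1, a scaffold of the degradation complex, read 345, 588, 561 and 1005, with a second at 0.84, and DNAJB9, a BiP cochaperone, 222, 312, 283 and 475. ERO1A, the ER oxidase, read 532, 760.2, 862 and 1518. All 4 were brightest at day 6, by 1.68-fold to 1.82-fold over day 4. By contrast SEL1L, a scaffold of the same degradation machinery, read 523, 449, 518 and 459, and DERL3, of the derlin family, 646, 592, 452 and 566. ERO1B, the other ER oxidase, read 159.8, 166, 259.8 and 259. XBP1, a central factor of the response, read 3029 at day 6 and 2824 at day 4, and PDIA3, a disulfide isomerase, 953 and 954. The cytosolic heat shock group did not share the direction: its median was -0.11 over 31 genes, with HSP90AB1 at 1224 against 2072 and BAG2, a cochaperone of HSP70, at 584 against 1066.

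The ATF4 and amino acid response group, which supplies amino acids and charged tRNAs under stress, had 27 of 30 genes above 0, with a median of 0.32. In it 2 genes were 2-fold higher and none 2-fold lower, beside 4.95% and 6.28% of all genes. It had a median of 0.73 from day 0 to day 4 and of 1.07 from day 0 to day 6, so here the last interval adds to an earlier difference. SLC7A5, the large neutral amino acid transporter, read 715, 1355, 1338 and 2615, with a second probe set at 0.60. ALDH18A1, of proline synthesis, read 633, 1427, 1883 and 3106. STC2, a secreted glycoprotein, read 8.62, 70.5, 76.1 and 178. CEBPG, a partner of ATF4, read 541, 846, 908 and 1622. SLC7A5, STC2, CEBPG and CHAC1 were nearly level between days 2 and 4 and higher at day 6. ATF4 itself read 4159 at day 6 and 3815 at day 4, and SLC7A11, the cystine transporter, 236 and 282. Among tRNA synthetases the ratios were small, as for WARS with 2979.9 against 2228 and TARS with 3660.0 against 3521.

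Sterol and fatty acid synthesis genes had a median of 0.35, with 23 of 28 above 0. Of these genes 2 were 2-fold higher and none 2-fold lower, beside 4.95% and 6.28% of all genes. The group's median from day 0 to day 4 was -0.20, opposite to the last interval, and from day 0 to day 6 it was 0.10. INSIG1, which retains the sterol regulators in the ER, read 3652, 2592, 2606 and 3815. SREBF2, which encodes such a regulator, read 1117, 988, 914 and 1331, and HMGCS1, the HMG-CoA synthase of the mevalonate pathway, 1256, 1453, 1183 and 1817. SCD, the stearoyl-CoA desaturase, read 152, 171, 129 and 282. These were all brightest at day 6. CYP51A1, a sterol demethylase and 1 of the 2 genes counted as 2-fold higher, was at least 3.04-fold higher but dim. It read 29.6, 11.6, 23.6 and 97.8, and passed the filter on mean signal only through day 6. DHCR7, the last enzyme of cholesterol synthesis, read 1507 at day 6 and 1631 at day 4.

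**Figure D4:**
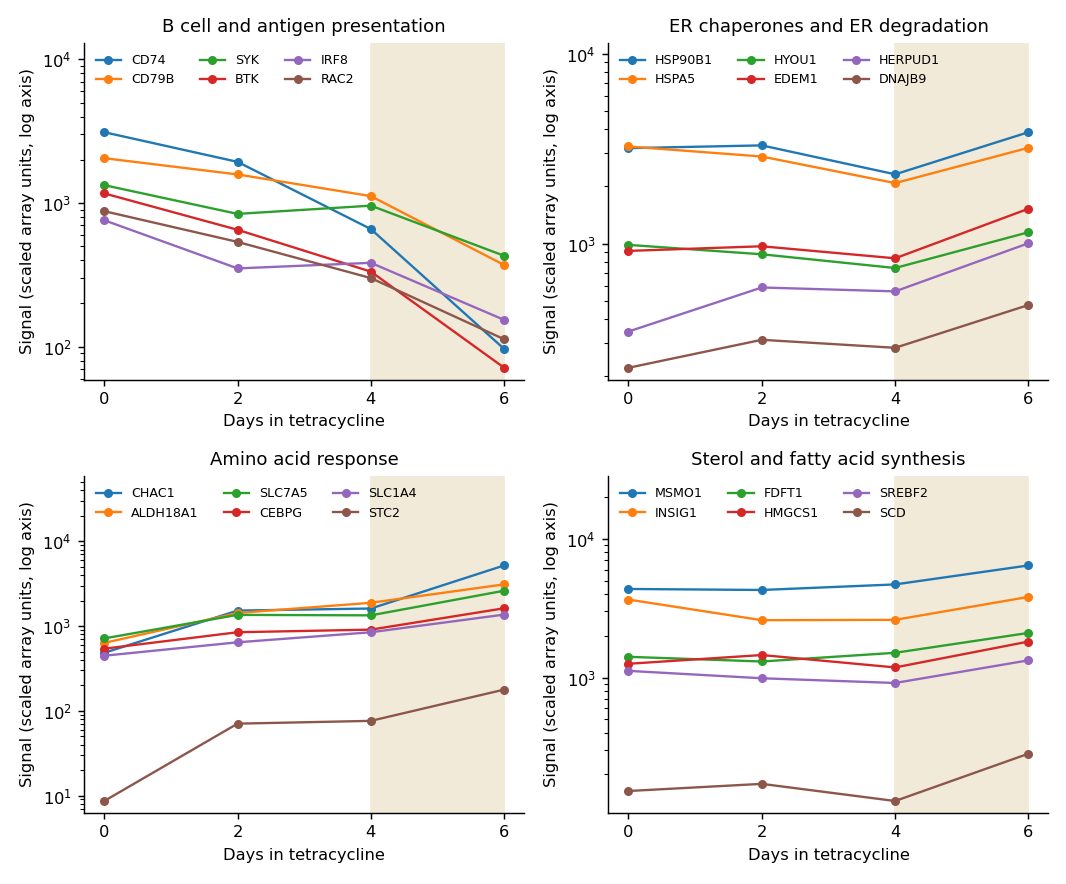
Signals on a log axis at days 0, 2, 4 and 6 in tetracycline, 1 array a day, for 6 genes of each of 4 groups; the shaded interval is day 4 to day 6. CD74, CD79B and BTK are dimmer on each later array, HSPA5 and HSP90B1 are lowest at day 4, and CHAC1 is highest at day 6 after level signals at days 2 and 4.

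Actin and cytoskeleton genes had the other low median, -0.28, with 31 of 42 below 0. In this group 1 gene was 2-fold lower and none 2-fold higher, beside 6.28% and 4.95% of all genes. RAC2, a GTPase of blood cells that acts on the actin cytoskeleton, read 877, 536, 300.2 and 113. TMSB4X, which sequesters actin monomers, read 6597, 7971, 7459 and 4359, with a second probe set at -0.62. RAC2 was thus dimmer on each later array, and TMSB4X was lowest at day 6. HCLS1, a cortactin relative of blood cells, had the opposite sign in the last interval, at 369 against 218.

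Genes of the cell cycle differed little in size. Of 52 replication genes 43 were below 0, with a median of -0.15, and 2 were 2-fold lower, the bright ORC1 and the dim E2F3, an S phase transcription factor, at least 2.65-fold lower. RFC5, a clamp loader subunit, read 1199, 1077, 1124 and 569.8, ORC4 read 654, 645, 641 and 366, and MCM3, of the replicative helicase, 736, 689, 683 and 402. All 3 were level over days 0, 2 and 4. The median was -0.20 for 53 DNA repair genes, of which 1 was 2-fold higher and 4 lower. It was -0.11 for 51 genes of G2 phase and mitosis, of which 1 was higher and 1 lower. Beside these 3 groups, 4.95% of all genes were 2-fold higher and 6.28% lower. The p53 and apoptosis group had a median of -0.15 over 31 genes, with 14 above 0 and 17 below. In it 2 were 2-fold higher and 2 lower, beside the same shares of all genes. BCL2, which blocks apoptosis, read 54.5, 119, 99.9 and 294 with a second probe set at 0.36. BID, which promotes it, read 734, 786, 1119.5 and 517, with day 4 the brightest array. The group had no single direction, as MCL1 was at -0.82 with a second probe set at -1.30, CFLAR at -0.61 with a second at -1.35, and FADD at 0.67.

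Proteasome genes were below 0 for 27 of 34, with a median of -0.15. None was 2-fold different, where all genes had 4.95% higher and 6.28% lower. Ribosomal protein genes were above 0 for 51 of 61, with a median of 0.11 that became -0.11 without rescaling and -0.02 after scaling to spike-in controls. Splicing genes had a median of -0.11, mitochondrial ribosome genes -0.09 and respiratory chain genes 0.02. Cohesin and condensin genes had -0.03 and interferon genes -0.02. None of 49 splicing, 51 respiratory chain, 33 cohesin and condensin and 7 interferon genes differed 2-fold, beside the same shares of all genes. The respiratory chain, cohesin and interferon medians changed sign under at least 1 alternative. Glycolysis genes had a median of 0.18, which was -0.04 without rescaling. Of 25 tested 17 were above 0, and 2 were 2-fold higher and none lower, beside 4.95% and 6.28% of all genes. SLC2A1, the glucose transporter, was at 591 against 358. PFKFB3, a glycolytic activator, was at 129 against 61.8, but in brightness class 1 with no second probe set. Its day 4 signal was under the highest control without target, 63.5. Lysosome genes had a median of -0.15 with 2 of 55 2-fold higher and 6 lower, beside 4.95% and 6.28% of all genes. Among the lower ones was LIPA, the lysosomal acid lipase, at least 3.05-fold lower. Of the 55, 21 were in brightness classes 1 and 2 and 7 were below background on at least 1 of these arrays. Genes of serine and one-carbon metabolism had a median of 0.21, solute transport 0.17, the TCA cycle 0.11 and translation 0.11, and all 4 medians were below 0 without rescaling. Ribosome biogenesis genes had a median of 0.00 and glutathione and NRF2 genes of -0.00. HMOX1, the haem oxygenase of the NRF2 group, read 385, 317, 476 and 171. In the small group of secreted and matrix genes 5 of 19 were 2-fold higher and 1 lower, beside 4.95% and 6.28% of all genes. Of the 19, 15 were in brightness classes 1 and 2 and 5 were below background on at least 1 of these arrays. The median was 0.43, and 0.08 with no filter on dim probe sets, and SERPINE2, a secreted protease inhibitor, read 275 against 105.

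**Figure D5:**
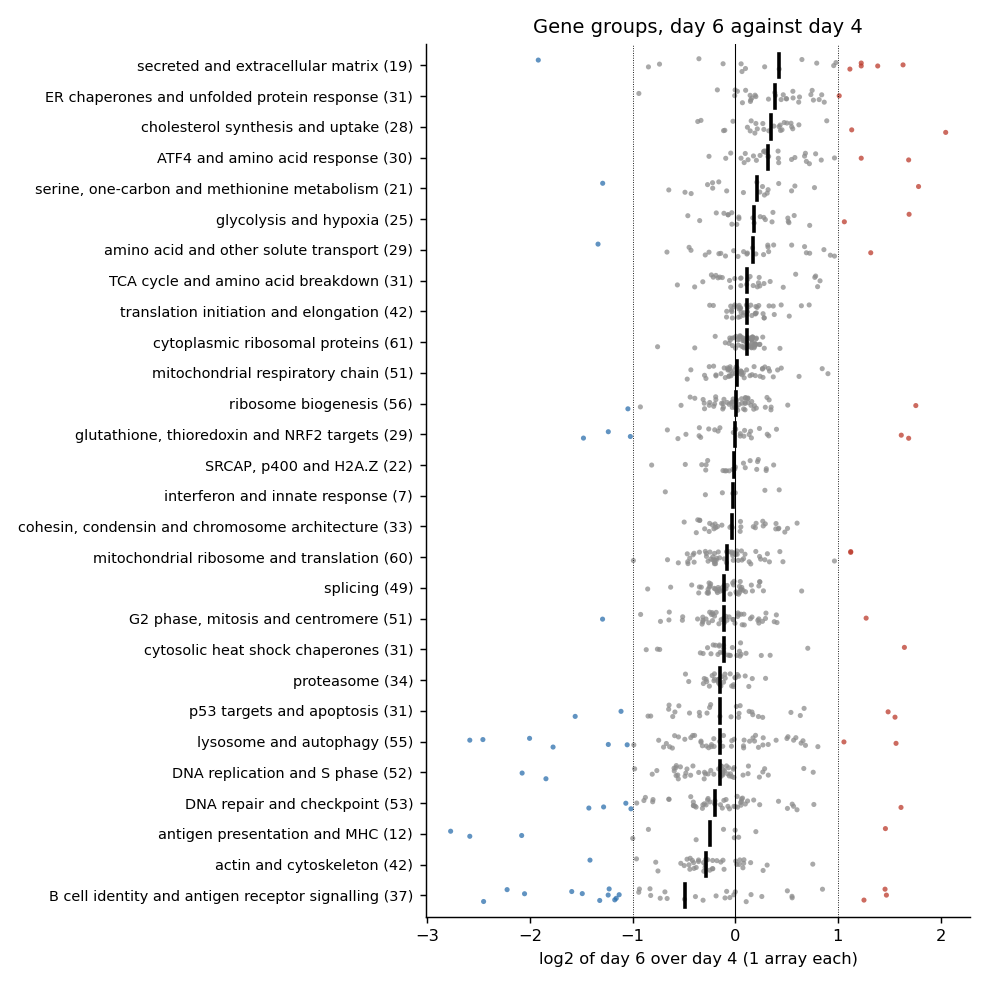
log2 ratio of day 6 over day 4 for every tested gene of 28 groups, 1 array each, with black bars at the group medians, the number of genes in brackets, red points at least 2-fold higher, blue points at least 2-fold lower and dotted lines at 2-fold. Medians run from 0.43 for secreted and matrix genes to -0.49 for B cell genes.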

How the data were processed

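Biotin-labelled cRNA made from poly(A) RNA was hybridised to Affymetrix chicken arrays, per the labels' protocols, with a single array at days 0, 2, 4 and 6. Each probe set has a linear intensity, deposited by the authors and produced in GeneChip Operating Software 1.3, per the design text. Which signal algorithm or scaling was used is not given in the sources used here. The medians of the deposited columns were 31.2, 25.6, 31.9 and 28.2 at days 0, 2, 4 and 6.

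Of 38535 probe sets, 96 controls were left out, and 16658 were kept with a mean log2 signal no lower than the median of all signals, 29.1. That mean was over all 4 arrays, so a gene dim on earlier arrays could be kept through a high day 6 signal. Arrays were set to the same median over these, by factors of 0.859, 0.962, 1.02 and 1.19 at days 0, 2, 4 and 6. Signals under the 40th percentile, 19.4, were raised to it before taking log2 ratios, while printed signals are without this floor. Names came from the platform annotation, with 27168 probe sets of 1 symbol, 177 of several and 11094 unlisted, the last 2 kinds unnamed here. The probe set with the highest mean stands for a gene, and the next brightest kept one is its second. Where the dimmer signal was below its array's background a bound ("at least") is given against that background. Ratios are relative to the median gene, and no test was made, as each day has 1 array. The number of arrays limits the precision.

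Named genes are all ACTR6 probe sets, the 15 highest and 15 lowest ratios above background on both arrays, the 5 highest and 5 lowest bounds, the 10 highest and 10 lowest ratios among genes level over days 0, 2 and 4, and the 3 largest ratios of each list. Other list members, and the bright and multi-probe-set genes, were chosen after their values were seen. The comparison, its gene lists and its markers were chosen with earlier results of these data known. A planned count of promoter motifs was not run, as no promoter sequences were used here. Alternatives were other scalings, filters, floors, probe set rules and thresholds. The calculation was tested on simulated data. The tools were Python 3.11.15, numpy 2.4.6 and pandas 2.3.3, with figures from matplotlib 3.10.9.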

Additional observations from a re-analysis of the deposited data

How the results depend on the processing

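Of the 129 genes named by rule, no 2-fold ratio turned its sign under an alternative tried, and no group median of 0.25 or more in size did. Rescaling could hardly have turned either, as the median log2 ratio of all genes went no lower than -0.23, without rescaling. Second probe sets of named genes such as TNRC18, DGKZ, AFF4, NAAA and B3GALNT2 did have the other sign. The small ratio of ACTR6 was -0.01 without rescaling and -0.20 as a mean of probe sets, and under that mean PDS5A was at 0.16 and RPL27 at -0.12. Of 1372 single-gene values under alternatives 72 moved, and of 308 group medians 3 moved. The counts moved much more, 32 of 62 by over 1.5 times. The main counts were 397 higher and 504 lower genes, and 79 and 158 for those level over days 0, 2 and 4. Without rescaling they were 258, 759, 33 and 271. With no filter on dim probe sets 937 were higher and 946 lower, and in the last interval only 433 were higher and 180 lower, the turn of the main order, and with the filter at the 75th percentile the counts were 66, 148, 23 and 64. A floor at the 60th percentile gave 195 higher and 273 lower, and in the last interval only 91 higher and 91 lower, and a pseudocount in place of the floor 153, 248 and 48 higher in the last interval only. The same median over all probe sets gave 40 higher in the last interval only. At 3-fold the counts were 112, 173, 11 and 45, and at 1.5-fold 992, 1113, 327 and 451. Counted only where the difference holds against background, 297 were higher and 253 lower, the turn of the main order, and in the last interval only 71 were higher and 87 lower. In brightness classes 3 and 4, a choice made after seeing the data as was the background rule for the last interval, the counts were 26, 72, 11 and 34.

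The group medians were 0.10 to 0.38 for the ATF4 group, 0.17 to 0.47 for the ER group, 0.13 to 0.40 for sterol synthesis, -0.72 to -0.31 for B cell genes, -0.51 to -0.25 for actin genes and -0.47 to -0.01 for antigen presentation. The replication median ran from -0.37 to -0.12, DNA repair from -0.42 to -0.13 and the proteasome from -0.37 to -0.12. The secreted and matrix median was 0.08 with no filter and 0.10 with the higher floor, and the interferon median 0.45 with the stricter filter. Leaving out an array was not possible, as each day has 1. No paired analysis was possible because each day has 1 array and no replicate numbers. Background limits the dim genes, as the highest control without target reached 73.3 at day 6 and 63.5 at day 4.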
